A study of Homo sapiens with 3 samples.

Results

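BH3-only proteins start mitochondrial apoptosis. Each carries the short BH3 helix with which it binds the groove of the antiapoptotic BCL2 proteins (the guardians BCL2, BCL2L1, BCL2L2, MCL1, BCL2A1 and BCL2L10), and some also engage the pore formers BAX and BAK1 directly. In small cell lung cancer, a neuroendocrine tumour treated with DNA-damaging drugs, the balance between these proteins and the guardians is a drug target.

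The BH3-only genes described here are BID, BAD, BIK, BMF, HRK, BBC3, PMAIP1 and BCL2L11. They were taken by symbol from the read count table, and all 8 were found among its 27574 genes. The group holds both the genes usually called activators (BID, BCL2L11 and BBC3) and those usually called sensitizers (BAD, BIK, BMF, HRK and PMAIP1). Counts came from 3 RNA sequencing libraries of H82R cells, named replicates 1, 2 and 3. H82 is a long-established cell line from a human small cell lung cancer. All 3 libraries are labelled as treated with etoposide, a topoisomerase II poison, together with the DNA crosslinker cisplatin; no dose or time is given, and the R is not explained. With 1 group and no control among the labels, only levels and their spread can be described, not a response to treatment. The labels do not tell whether separate cultures were used, so the edgeR p-values reflect the spread between 3 samples that may be technical repeats. The p-values of the chi-square test of homogeneity are set against counting error alone.

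Replicates 1, 2 and 3 held 25013265, 42610181 and 23868201 counts. Genes that reached 10 counts in each of the 3 libraries are called detected (14612 genes), and levels are CPM (counts scaled by library size) divided by the merged exon length in kilobases. The median detected gene stood at 5.58 CPM per kb. Of 7 neuroendocrine markers fixed for the cell type, all were detected and 5 lay above that gene, led by UCHL1 at 143 ± 3.42 CPM per kb (SD, n = 3). INSM1 (3.30 ± 0.292) and SCG2 (0.742 ± 0.0875) lay below the median gene. Of all genes tested, 45.8% lay above and 45% below. Of 9 leukocyte, fibroblast and endothelial markers, 5 were detected, and their summed level was 28.0 to 37.0 CPM. CD68 held most of it, and 97.6% of its coding bases overlap a second gene on the same strand. CD68 lay above the median gene, at 10.3 ± 1.69 CPM per kb (SD, n = 3), and the other 4 detected markers lay below it. The T cell gene CD3E, with no annotated overlap, had 136, 424 and 179 counts (5.48, 9.92 and 7.47 CPM), and the part of other cells in the results was not tested. None of the 9 had 0 counts in every library, but DCN and CDH5 each had 1 count in replicate 2 and none in the other libraries.

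PMAIP1, which encodes NOXA, the partner of MCL1, was the highest of the 8 genes in every library. BBC3, BMF, BID and BCL2L11 followed close together, BAD was lower, and BIK and HRK were near the limit of these libraries. On the log2 scale PMAIP1 lay 1.47 ± 0.09 (SE) above the median detected gene (edgeR quasi-likelihood test, adjusted p = 7.8e-07). BMF, BID, BCL2L11 and BAD lay below it, BBC3 was not distinguished from it, and BIK and HRK, under 10 counts in 2 libraries each, were not tested. Thus 1 of 6 tested BH3-only genes lay above, where 45.8% of all 13539 genes tested did, and 4 of 6 below, where 45% did. The mean levels of all 8 genes had a median of 3.06 CPM per kb, against 5.58 over all genes tested, a set that BIK and HRK did not enter.

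Promoter windows of 4 genes are printed because they belong to the genes on which the results turn. They are PMAIP1, the highest member, BBC3, HRK, and BCL2L11, which varied little. BBC3 and HRK were highest in replicate 2, as were PMAIP1, BMF and BIK. Each window runs from 250 bases before to 50 bases after a RefSeq start, in GRCh38.p14, on the strand of the gene and 5′ to 3′. Capitals mark matches on either strand to the motifs listed after the sequences.
PMAIP1, chr18:59899746-59900045, plus strand: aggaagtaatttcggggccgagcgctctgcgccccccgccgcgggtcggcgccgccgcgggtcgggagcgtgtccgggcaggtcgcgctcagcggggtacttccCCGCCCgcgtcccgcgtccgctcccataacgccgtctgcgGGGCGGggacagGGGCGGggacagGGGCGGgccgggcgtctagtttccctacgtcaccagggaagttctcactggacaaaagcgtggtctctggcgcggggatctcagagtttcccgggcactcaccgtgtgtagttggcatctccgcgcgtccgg
BBC3, chr19:47232618-47232917, minus strand: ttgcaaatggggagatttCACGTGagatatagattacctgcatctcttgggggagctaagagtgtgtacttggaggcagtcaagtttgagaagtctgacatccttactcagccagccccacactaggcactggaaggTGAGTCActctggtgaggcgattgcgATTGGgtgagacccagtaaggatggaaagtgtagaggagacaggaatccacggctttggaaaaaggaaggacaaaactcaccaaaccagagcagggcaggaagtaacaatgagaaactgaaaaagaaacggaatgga
HRK, chr12:116881392-116881691, minus strand: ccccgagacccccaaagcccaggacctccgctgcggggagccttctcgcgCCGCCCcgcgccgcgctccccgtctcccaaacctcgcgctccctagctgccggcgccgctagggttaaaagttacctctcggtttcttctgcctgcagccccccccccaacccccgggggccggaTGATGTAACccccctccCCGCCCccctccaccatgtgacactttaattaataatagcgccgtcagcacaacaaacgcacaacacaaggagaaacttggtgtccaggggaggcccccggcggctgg
BCL2L11, chr2:111120664-111120963, plus strand: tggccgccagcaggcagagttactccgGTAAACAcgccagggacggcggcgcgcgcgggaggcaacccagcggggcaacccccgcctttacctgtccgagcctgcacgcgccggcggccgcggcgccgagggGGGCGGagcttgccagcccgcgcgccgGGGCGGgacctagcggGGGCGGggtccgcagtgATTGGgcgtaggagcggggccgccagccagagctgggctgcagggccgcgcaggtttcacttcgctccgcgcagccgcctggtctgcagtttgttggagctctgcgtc
The motifs searched on both strands were the GC box GGGCGG, the CAAT box CCAAT, the TATA box TATAAA, the E-box CACGTG, the AP-1 motif TGANTCA, the cyclic AMP response element TGACGTCA, the FOXO motif GTAAACA, the E2F motif TTTCGCGC, a C/EBP-ATF motif TGATGNAAN and the p53 half-site. No 2 matches overlapped in these 4 windows.

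Windows were given for 7 of the 8 genes, several for some, and 6 of the 7 had a GC box in at least 1 window. Of all 35116 windows 45% hold a GC box. That share counts windows, so it is not matched to genes with several: BID had 5, BAD 2 and BMF 2. PMAIP1 held 4 GC boxes, at -146, -106, -94 and -82 bases from the start, and 42 CG dinucleotides, more than 94.2% of windows. The 1 window given for BBC3, at the upstream end of the gene, held no GC box and 5 CG dinucleotides. It had an E-box at -232 (7.26% of all windows hold one), an AP-1 motif at -113 (7.71%) and a reversed CAAT box at -87 (34.6%). HRK had a C/EBP-ATF match at -75 (3.61% of all windows), and BCL2L11 had a FOXO match at -223 (3.42%). None of the 7 genes had a TATA box, a cyclic AMP response element, an E2F motif or a p53 half-site in these windows, where 11.5%, 1.85%, 0.515% and 6.63% of all windows hold one. A window covers part of a gene's starts: of the annotated transcripts, 3 of 6 of BBC3, 3 of 3 of PMAIP1, 1 of 4 of HRK and 11 of 25 of BCL2L11 begin inside the windows printed, and the other starts were not searched. These matches describe letters only.

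PMAIP1 and BBC3 are the classical p53 targets of the group, and PUMA, the product of BBC3, binds all guardians. PMAIP1 had 700, 1669 and 853 counts in replicates 1, 2 and 3, or 12.6, 17.5 and 15.9 CPM per kb. It made up 45.3%, 46.6% and 51.0% of the summed level of the 8 genes. The gene lies on GRCh38 chromosome 18 from 59899948 to 59904306 on the plus strand, with 2235 exon bases. BBC3 had 284, 949 and 307 counts, or 3.60, 6.98 and 4.03 CPM per kb. Only replicate 2 stood above the median gene. With all 3 libraries its distance from the median gene was -0.17 ± 0.19 (SE; edgeR, adjusted p = 0.403), and without replicate 2 it was -0.54 (adjusted p = 0.00231), a call below the median gene. On CPM with no length it was also called below, at -0.68 (adjusted p = 0.0104). BBC3 lies on chromosome 19 from 47220822 to 47232766 on the minus strand, and 2.39% of its exon bases are shared with the microRNA gene MIR3191.

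BID and BCL2L11 encode direct activators of BAX and BAK1. BID must be cut, chiefly by caspase 8, to become active, and BIM, the product of BCL2L11, is made in several splice forms that these gene counts do not separate. BID had 375, 596 and 313 counts in replicates 1, 2 and 3, or 3.40, 3.14 and 2.94 CPM per kb. BCL2L11 had 517, 844 and 450 counts, or 3.13, 2.97 and 2.82 CPM per kb. Both were nearly level across the libraries. BID lay -0.81 ± 0.12 (SE) from the median gene and BCL2L11 -0.90 ± 0.10 (edgeR, adjusted p = 1.7e-04 and 4.0e-05). BID lies on chromosome 22 from 17734138 to 17774770, minus strand, and BCL2L11 on chromosome 2 from 111119378 to 111168447, plus strand. An antisense gene, MIR4435-2HG, covers 10.9% of the exon bases of BCL2L11, and without a stated strand setting reads of such partners cannot be told apart.

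Among the sensitizers, BMF, which is held on actin-based motors through a dynein light chain until cells detach or are stressed, had 469, 1000 and 415 counts, or 3.47, 4.30 and 3.18 CPM per kb. It lay -0.60 ± 0.12 (SE) from the median gene (edgeR, adjusted p = 0.00158). BMF is on chromosome 15 from 40087890 to 40108892, minus strand, and the antisense gene BMF-AS1 covers 8.46% of its exon bases. BAD, which survival kinases phosphorylate and 14-3-3 proteins then retain in the cytosol, had 59, 127 and 83 counts, or 1.39, 1.74 and 2.03 CPM per kb. At -1.69 ± 0.21 (SE) it was the furthest below the median gene of the tested members (adjusted p = 6.9e-05). BAD lies on chromosome 11 from 64269830 to 64284704 on the minus strand. GPR137 on the other strand covers 38.1% of its coding bases, so its count depends on how reads from both strands were assigned.

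BIK, a BH3-only protein of the endoplasmic reticulum, and HRK, known as a mediator of neuronal death, were at the bottom. BIK had 5, 33 and 6 counts, or 0.201, 0.772 and 0.25 CPM, with exact 95% Poisson intervals of 0.0654 to 0.470, 0.532 to 1.08 and 0.0919 to 0.545 CPM. HRK had 8, 36 and 9 counts, or 0.322, 0.842 and 0.376 CPM, with intervals of 0.139 to 0.635, 0.590 to 1.17 and 0.172 to 0.713 CPM. For both genes replicate 2 was the highest library, and its interval lay clear of that of replicate 1 for BIK but overlapped the others in part. These intervals cover counting error only. Per kb of exon BIK averaged 0.428 ± 0.332 and HRK 0.0749 ± 0.0418 CPM (SD, n = 3). BIK lies on chromosome 22 from 43110748 to 43129712, plus strand, and HRK on chromosome 12 from 116856144 to 116881441, minus strand.

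**Figure D1:**
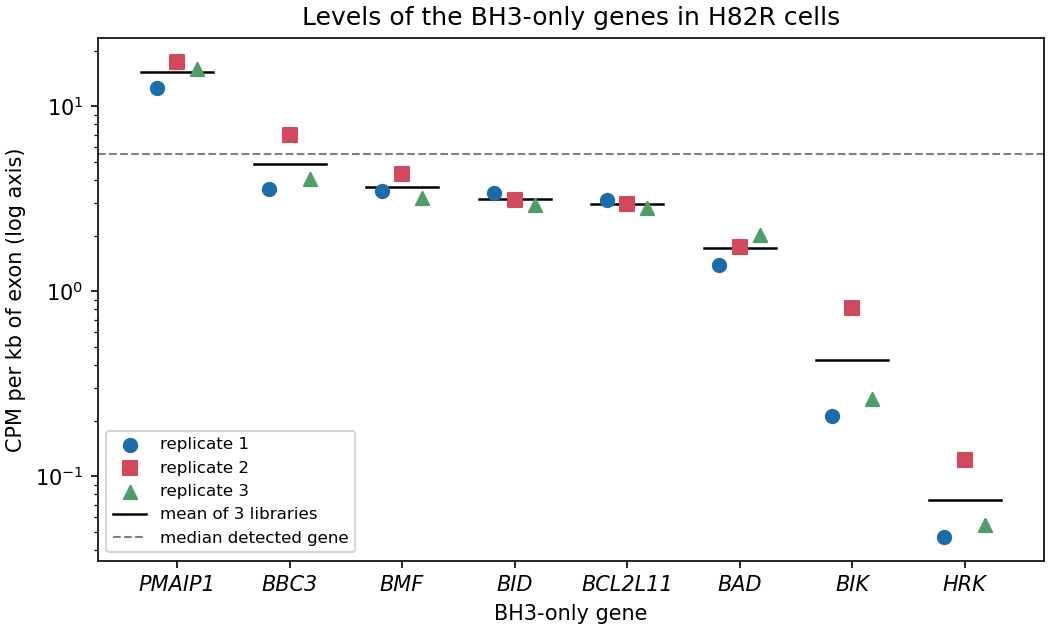
CPM per kb of merged exon (log axis) of the 8 BH3-only genes in each of the 3 libraries, with their mean as a bar. The dashed line is the median detected gene, drawn at the mean of the 3 library medians (5.555, 5.469 and 5.584 CPM per kb). PMAIP1 lies above the line in every library, BBC3 crosses it in replicate 2 only, and BIK and HRK lie below all other members.

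The order of the 8 levels per kb was the same in the 3 libraries. From high to low it ran PMAIP1, BBC3, BMF, BID, BCL2L11, BAD, BIK and HRK. PMAIP1 averaged 3.15 times BBC3, and their ranges over the libraries did not overlap. The ranges of BBC3 and BMF, of BMF and BID, and of BID and BCL2L11 overlapped, so these neighbours were not separated beyond their spread. BAD was below BCL2L11, BIK below BAD and HRK below BIK with no overlap. The choice of length bears on the order in the middle. With the longest transcript as the length, BBC3 stayed at position 2 but BID moved to 3 and BMF to 4. On CPM with no length, BMF (19.9 CPM) and BCL2L11 (19.8 CPM) came before BBC3 (15.5 CPM), and HRK (0.513 CPM) before BIK (0.408 CPM). PMAIP1 was first by each measure, at 34.3 CPM or 15.3 CPM per kb.

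The members differed in how far the libraries agreed. BBC3, PMAIP1 and BMF varied beyond counting error (chi-square test of homogeneity, adjusted p = 6.1e-30, 1.5e-11 and 3.0e-07), while BAD, BID and BCL2L11 did not pass the threshold (0.112, 0.202 and 0.327). These 3 of 6 genes stand beside 68.7% of all detected genes that vary by the same test. When every gene with a count was tested, BIK and HRK also passed (adjusted p = 0.00236 and 0.0190), where 47.4% of genes did. The calls of BBC3 and BMF were lost without replicate 2 (adjusted p = 0.280 and 0.320), and PMAIP1, lowest in replicate 1, kept its call (3.1e-05).

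Replicate 2 held the highest level of 5 of the 8 genes: PMAIP1, BBC3, BMF, BIK and HRK. Against the mean of replicates 1 and 3 it stood at 1.83 times for BBC3, 3.42 times for BIK and 2.42 times for HRK, and at 1.29 times for BMF and 1.23 times for PMAIP1. For BID (0.991), BCL2L11 (0.998) and BAD (1.02) it was level with that mean. BBC3 was the 1 member of 6 detected whose level in replicate 2 was at least 1.5 times that in each other library, a limit set after the values were seen. Of all detected genes 3.28% met that limit. BIK and HRK met it too, from few counts and outside the set behind that share.

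Among 16 transcription regulators of BH3-only genes, 4 met the same limit: CEBPB, JUN, DDIT3 and TRIB3, named here after their values were seen. DDIT3 encodes CHOP, a stress factor that can induce BBC3 and BCL2L11, JUN is a component of AP-1, and TRIB3 is a target of CHOP and ATF4. DDIT3 had 164, 618 and 190 counts in replicates 1, 2 and 3, which put replicate 2 at 1.99 times the mean of the other libraries. The ratio was 2.63 for CEBPB, 2.01 for JUN and 1.89 for TRIB3. Genes on the other strand cover 33.5% of the coding bases of DDIT3 and 22.3% of those of CEBPB. With no stated strand setting, reads of those genes cannot be told apart. JUN and TRIB3 have no annotated overlap. None of the 9 guardian and effector genes, 22 kinases and retention partners, 14 processing and turnover partners or 8 atypical BH3 genes met the limit with more than 3 counts in replicate 2; the guardian BCL2L10 had 0, 3 and 0 counts. Replicate 2 was also the deepest library, and its levels moved with GC content. For detected genes with a GC content of 65% or more the median log2 of replicate 2 over the mean of the others was 0.10, against -0.21 below 40%. The share that met the limit of 1.5 times was 7.05% in the first set and 0.894% in the second. Of the members and regulators that met the limit, BBC3 has 69.7% GC, CEBPB 66.2%, TRIB3 60.9% and JUN 56.7%. BIK has 56.0%, DDIT3 49.7% and HRK 49.6%. PMAIP1, which did not meet the limit, has 37.2%. In an alternative added after the data were seen, with library sizes that follow this trend, replicate 2 stood at 1.69 times the mean of the others for BBC3, 1.45 times for PMAIP1 and 1.23 times for BMF. The homogeneity test then gave adjusted p = 1.5e-23, 7.0e-26 and 8.1e-05 for these genes and 0.0341 for BAD. The parts of depth and of GC content in these differences were not tested.

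**Figure D2:**
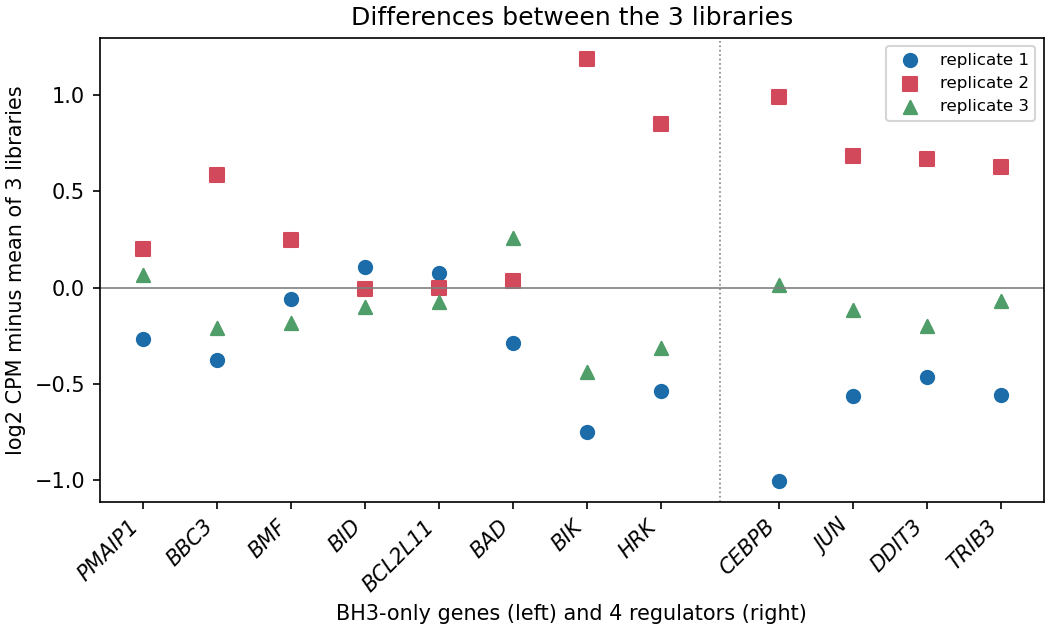
Difference of log2 CPM in each library from the mean of the 3 libraries, for the 8 BH3-only genes on the left and for CEBPB, JUN, DDIT3 and TRIB3 on the right. Replicate 2 is the highest library for PMAIP1, BBC3, BMF, BIK and HRK and for the 4 regulators, while BID and BCL2L11 lie close to 0 in every library.

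Per kb of exon, MCL1, BCL2L2 and BCL2L1 stood above all 8 BH3-only genes in each library, and BCL2 stood below 6 of them. The ranges of BCL2L1 (17.07 to 21.05 CPM per kb) and PMAIP1 (12.61 to 17.47) overlapped over the libraries. On CPM with no length, BCL2 (mean 11.2 CPM) stood above BAD (2.94 CPM). The summed level of the 8 BH3-only genes was 27.8, 37.5 and 31.2 CPM per kb in replicates 1, 2 and 3, against 99.9, 117 and 107.9 for the 6 guardians, ratios of 0.279, 0.321 and 0.290. MCL1 (44.2 ± 2.76 CPM per kb, SD, n = 3), BCL2L2 (43.5 ± 6.46) and BCL2L1 (19.6 ± 2.18) lay above the median gene in edgeR's test and BCL2 (0.955 ± 0.0450) below it. Another gene on the same strand shares 61.5% of the coding bases of BCL2L2, and the antisense gene ABALON covers 80.7% of those of BCL2L1. BCL2L10 had 0, 3 and 0 counts, and BCL2A1 had none, which allows up to 0.121, 0.0702 and 0.125 CPM (3 counts). Of the pore formers BAK1 (17.7 ± 1.81 CPM per kb) and BAX (10.3 ± 0.638) lay above the median gene and BOK (1.84 ± 0.317) below it. Of these 9 guardian and effector genes 5 lay above and 2 below, where 45.8% and 45% of all genes tested did, and the median over the 7 detected was 1.68 on the log2 scale, against 0.01 over all genes tested.

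**Figure D3:**
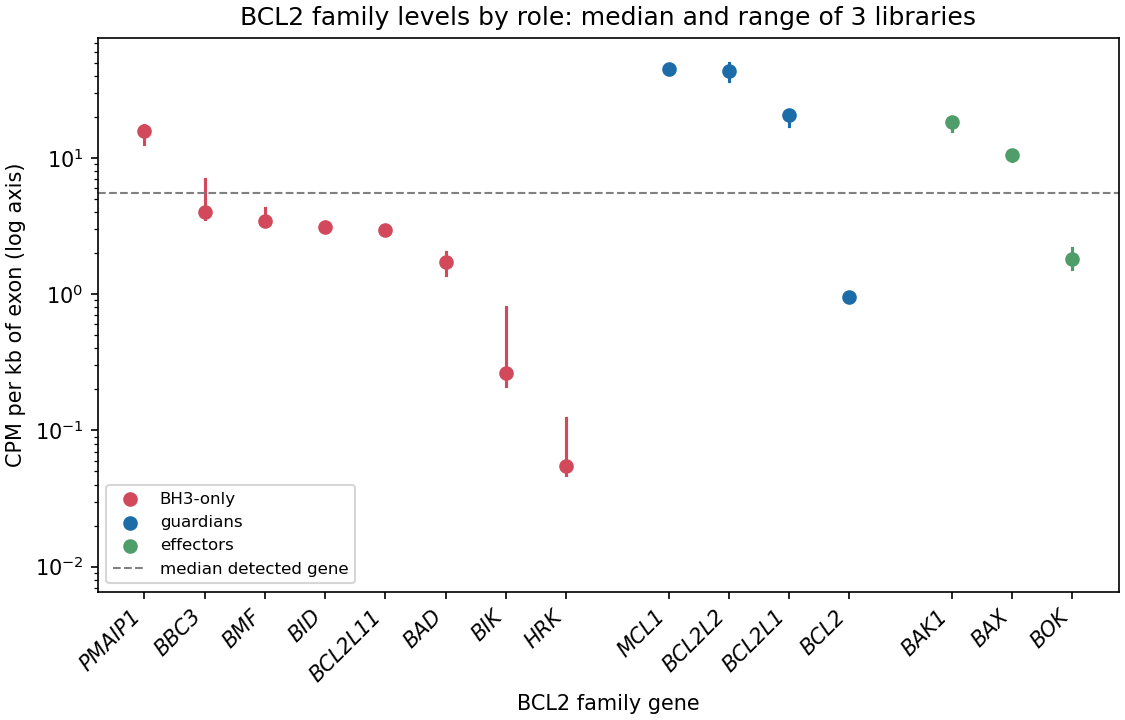
CPM per kb of merged exon (log axis) of the BH3-only genes, the guardians and the effectors, as the median (point) and range (line) of 3 libraries, with the median detected gene dashed. BCL2A1 and BCL2L10, at or near 0 counts, are not drawn. PMAIP1 is the BH3-only gene nearest to MCL1, BCL2L2 and BCL2L1, and BCL2 lies below BCL2L11.

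Ratios of each BH3-only gene to its partners were taken per kb within a library for 15 pairs and are given as values with counting intervals, without a test. PMAIP1 stood at 0.306 times MCL1 in replicate 1 (95% exact interval 0.283 to 0.332), 0.388 times in replicate 2 (0.368 to 0.409) and 0.342 times in replicate 3 (0.318 to 0.368). Every library thus held more MCL1 than PMAIP1 transcript per length. BBC3 stood at 0.0874, 0.155 and 0.0866 times MCL1, with replicate 2 apart from the other libraries, whose intervals overlap. BCL2L11 was at 0.0760, 0.0659 and 0.0606 times MCL1 and at 0.152, 0.141 and 0.165 times BCL2L1, but at 3.12, 3.25 and 2.97 times BCL2, the narrowest relative spread of the 3 ratios. BMF exceeded BCL2 as well, by 3.46, 4.71 and 3.35 times. These sizes rest on the lengths used: as ratios of counts with no length, the means were 0.177 for PMAIP1 over MCL1 (0.346 per kb), 0.103 for BCL2L11 over MCL1 (0.0675), 0.307 for BCL2L11 over BCL2L1 (0.153), 1.76 for BCL2L11 over BCL2 (3.11) and 1.78 for BMF over BCL2 (3.84). BIK reached 0.0102, 0.0385 and 0.0154 times BCL2L1, and HRK 0.00228, 0.00584 and 0.00321 times; with no length the means were 0.00615 for BIK (0.0214 per kb) and 0.00781 for HRK (0.00378). Without replicate 2 the mean per kb of BIK over BCL2L1 was 0.0128. With the longest transcript as the length, BBC3 over MCL1 averaged 0.171 (0.1097 with merged exons).

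BAD stood at 0.0674, 0.0827 and 0.119 times BCL2L1, the guardian it binds together with BCL2 and BCL2L2. The intervals of replicate 1 (0.0511 to 0.0874) and replicate 3 (0.0940 to 0.148) did not overlap. BID was at 0.325, 0.328 and 0.272 times BAX and at 3.27, 1.65 and 1.88 times CASP8, the gene of the caspase that cuts it. CASP8 itself had 187, 589 and 271 counts, so that the higher ratio in replicate 1 went with its lowest CASP8 level. PMAIP1 exceeded BCL2L11 by 4.03, 5.89 and 5.65 times, and BBC3 was at 0.285, 0.400 and 0.253 times PMAIP1. The dynein light chain genes were above the BH3-only genes whose products they hold. BCL2L11 reached 0.0802, 0.0884 and 0.0881 times DYNLL1, and BMF 0.189, 0.214 and 0.160 times DYNLL2. With no length the mean of PMAIP1 over BCL2L11 was 1.74 (5.19 per kb), that of BID over CASP8 1.39 (2.27), that of BID over BAX 0.530 (0.308), that of BAD over BCL2L1 0.0462 (0.0896) and that of BCL2L11 over DYNLL1 0.193 (0.0856). With the longest transcript BCL2L11 over DYNLL1 averaged 0.0507, and BBC3 over PMAIP1 averaged 0.471 (0.313 with merged exons).

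**Figure D4:**
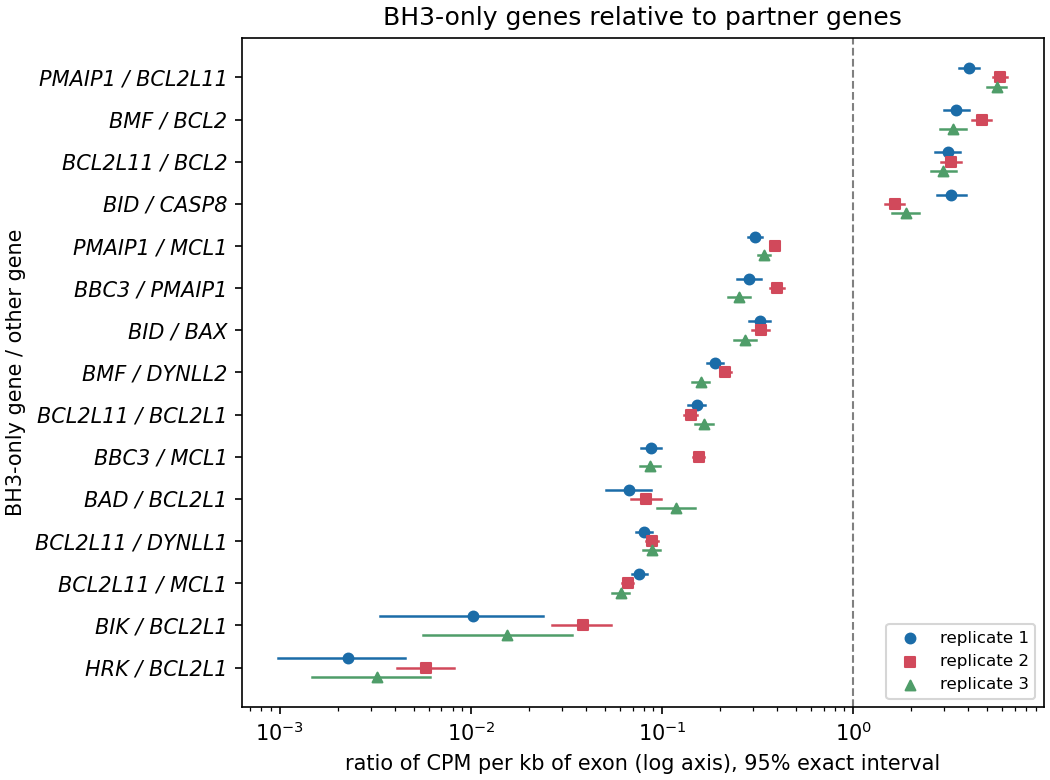
Ratio of CPM per kb (log axis) of a BH3-only gene to another gene within each library, for 15 pairs, with exact 95% binomial intervals for counting error. The ratios above 1 in every library are 4 (PMAIP1 over BCL2L11, BMF and BCL2L11 over BCL2, BID over CASP8), and the intervals are widest for BIK and HRK.

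Genes that act on BH3-only proteins or on the guardian MCL1 after transcription were mostly above the median gene, where 45.8% of all genes tested lay. Of 22 kinases and retention partners of BAD, BIM and BMF, 18 lay above the median gene, 2 below and 1 was not detected (median log2 distance of the detected genes 1.62). The 14-3-3 genes YWHAE (162 ± 12.3 CPM per kb), YWHAQ (126 ± 15.1) and YWHAZ (103.7 ± 3.64) were highest, and PIM2, a kinase gene, was the lowest detected (4.23 ± 0.580). DYNLL1 stood at 34.9 ± 3.65 and DYNLL2 at 19.4 ± 0.962 CPM per kb. Of 14 processing and turnover partners, 9 lay above and 3 below (median 1.27). The chaperone gene HSPA5 (103 ± 15.1) and the genes of the MCL1 ubiquitin ligase HUWE1 (57.9 ± 2.89) and deubiquitinase USP9X (38.4 ± 3.05) were highest. The initiator caspase genes CASP8 (1.501 ± 0.435) and CASP10 (0.0785 ± 0.0153, the lowest detected) lay below the median gene.

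Of the 16 transcription regulators, 14 were tested and 2 were undetected. Of those tested, 8 were called above the median gene and 3 below it, and 3 could not be placed on either side (median log2 distance 1.64). Among all genes tested, 45.8% lay above and 45% below. MYC (263.8 ± 49.7 CPM per kb), ATF4 (226 ± 34.7), which drives stress-induced PMAIP1 transcription, and E2F1 (57.1 ± 4.83) were highest, and the p53 relative TP63 was the lowest detected (0.132 ± 0.0524). Of 8 atypical genes, whose products carry a BH3-like stretch or belong to the wider family, 7 were tested. Of these, 4 lay above and 1 below (median 0.33). BNIP3L (38.6 ± 2.07), BNIP3 (8.38 ± 0.240) and BCL2L12 (7.78 ± 1.09) were highest, and MOAP1 was the lowest detected (1.42 ± 0.131). By Euclidean distance of log2 CPM per kb over the 3 libraries, the partner gene nearest to PMAIP1 among 62 was FOXO3, a forkhead factor, at 12.9, 17.0 and 15.6 CPM per kb (distance 0.06). FBXW7, a ubiquitin ligase gene, was nearest to both BCL2L11 (0.32) and BID (0.47), and BOK to BAD (0.39).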

How the data were processed

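The authors deposited raw read counts per gene symbol, 1 column for each of 3 libraries, made from TRIzol-extracted total RNA, per the labels' protocols. Per the submitters' processing notes, the tool was STAR 2.6.1b and the build hg38. Nothing used here states the counter, annotation or strand setting. Of 27587 names, 13 turned into dates were left out (0.0665% to 0.0736% of counts).

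Library sizes were scaled with TMM (edgeR 4.0.16, R 4.3.3). Exon lengths came from GENCODE 29 on GRCh38, and 13539 of 14612 detected genes (92.7%) had one; this annotation need not be the authors' own. Promoter windows are RefSeq's. Each gene was tested against the median detected gene of its library with edgeR's quasi-likelihood F test of the intercept, with that level as an offset taken as known, Benjamini-Hochberg adjusted over the 13539 genes at 0.05. The SE given with a distance was derived from this test, as the size of the distance divided by the square root of F. Spread between libraries was tested with a chi-square test over detected genes. On simulated data for 13539 genes the level test called 94% of 50 genes placed 0.5 above the median gene on the log2 scale and 4% of 50 placed at it. The homogeneity test called 0.0603% of genes with counting noise only. limma 3.58.1 and DESeq2 1.42.0 served as alternatives.

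The members, lists and pairs were chosen with earlier results of these data known. The text names the 8 members, all pair, guardian and effector genes, the 3 highest and the lowest detected gene of each other list, and the partner gene nearest to a member; that of BBC3 and BMF is not reported here.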

Additional observations from a re-analysis of the deposited data

How the results depend on the processing

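The positions of PMAIP1 above and of BAD, BID, BCL2L11 and BMF below the median gene held without each library, with DESeq2 size factors, plain totals, a filter of 1 CPM, limma-trend, DESeq2's Wald test, CPM with no length, the longest transcript as length, and protein-coding genes as the standard. When every gene with a count was kept, which lowers the median gene, 3 members were called above it in place of 1. Another 3 were called below in place of 4: BAD and, tested only here, BIK and HRK. Of all genes, 8369 were then called above and 8300 below, against 6195 and 6087 in the main setting. BID (0.12), BMF (0.33), BBC3 (0.75) and BCL2L11 (0.029) changed sign. BBC3 lay between -0.54 and 0.046 with 1 library left out and at 0.16 with the longest transcript. It was called below the median gene without replicate 2 (-0.54) and with no length (-0.68), so that 5 members lay below in place of 4. All genes called below numbered 6117 without replicate 2 and 6705 with no length, against 6087 in the main setting. The setting with no length also tests detected genes of unknown length. The members that vary between libraries numbered 1 to 3 with 1 library left out and 5 with every gene kept, and all such genes 5708 to 7888 against 10044; the lowest numbers are those without replicate 2. The members-to-guardians ratio, 0.296 on average, was 0.237 with no length and 0.338 with the longest transcript, settings that differ in the length alone. No paired analysis was possible because the labels form 1 group. Depth limits BIK and HRK, which have under 10 counts in 2 libraries.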
